A study of Mus musculus with 2 samples.

Results

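The 9 genes described here encode the enzymes that make serine (Phgdh, Psat1, Psph), pass a carbon of serine to the folate pool (Shmt1, Shmt2, Mthfd1, Mthfd1l, Mthfd2) and make asparagine (Asns). They were taken by symbol from 19935 genes that had a probe set of their own, and all 9 were measured, each by exactly 1 such probe set. The set was put together with earlier results of these arrays in view, so their differences are described and not tested. The RNA came from Ba/F3 cells, a mouse pro-B-like line that needs interleukin-3 (IL-3), carrying the BCR-ABL fusion kinase of chronic myeloid leukaemia. Cells with IL-3 (title Live-IL3, 1 array) and cells without it (title Live-NoIL-3, 1 array) both stood in RPMI with 10% serum, both received imatinib, an inhibitor of the ABL kinase, at 5 µM for 6 h, and both expressed BCR-ABL. By the submitters' account the cells deprived of IL-3 die under the drug and those supplied with it live. No untreated cells were analysed here, so the action of imatinib itself is not visible, and neither the number of BCR-ABL clones nor the number of cultures is given.

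The label of the IL-3 array is contradictory: title and source name say that IL-3 was present, the description says that it was not. Every direction below follows the titles and would turn round if the description were right. Values are the deposited numbers, on a log scale taken as log2, relative to a baseline for each probe set that is not given. They carry no expression level, and a value of 0 is that baseline and not absence. Each difference is the value with IL-3 less the value without IL-3, in which the baseline cancels. A higher number was read as more RNA. The median over all probe sets was -0.03 in the IL-3 array and -0.05 in the other. With 1 array a group there is no replicate error and no test. The nearest measure of error is the spread between probe sets of the same gene within these arrays. Its pooled SD of the difference was 0.14 over 998 genes, and 0.16 over the 313 such genes with several probe sets among the highest 25% by mean value. This spread holds no variation between cultures, RNA preparations or hybridisations. In bulk RNA a change in the mix of cells cannot be told apart from a change in RNA per cell.

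As background, serine is made from the glycolytic intermediate 3-phosphoglycerate by oxidation, transamination and dephosphorylation. Serine hydroxymethyltransferases then pass a carbon from serine to tetrahydrofolate, giving glycine and a carbon unit that purine, thymidylate and methionine synthesis draw on. The folate pathway is duplicated, with separate enzymes in mitochondria and cytosol, and proliferating cells commonly make formate in mitochondria and use it in the cytosol. Asparagine synthetase transfers nitrogen from glutamine to aspartate. Many of these genes are known targets of the transcription factor ATF4, which answers amino acid shortage and other stresses, and several are also known MYC targets.

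Of the 9 genes, 8 had a higher value with IL-3 than without it, and 5 were at least 2-fold higher, a difference of at least 1 on the log2 scale: Mthfd2, Phgdh, Psat1, Asns and Mthfd1. Across all 19935 genes, 0.441% reached that mark and 59.8% were above 0. A threshold of 1.5-fold was passed upwards by 7 of the 9 genes, adding Shmt2 and Mthfd1l, against 3.52% of all genes, and downwards by 0 of the 9, against 2.71% of all genes. The median difference of the 9 genes was 1.07 on the log2 scale, against 0.04 over all genes. With IL-3 the 9 deposited values ran from -0.15 to 1.84 with a median of 1.47. Without IL-3 they ran from -0.11 to 0.53 with a median of 0.34. Psph was the only one of the 9 with a lower value with IL-3, and the only one below 0 in the IL-3 array, while without IL-3 both Psph (-0.11) and Phgdh (-0.02) were below 0.

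**Figure D1:**
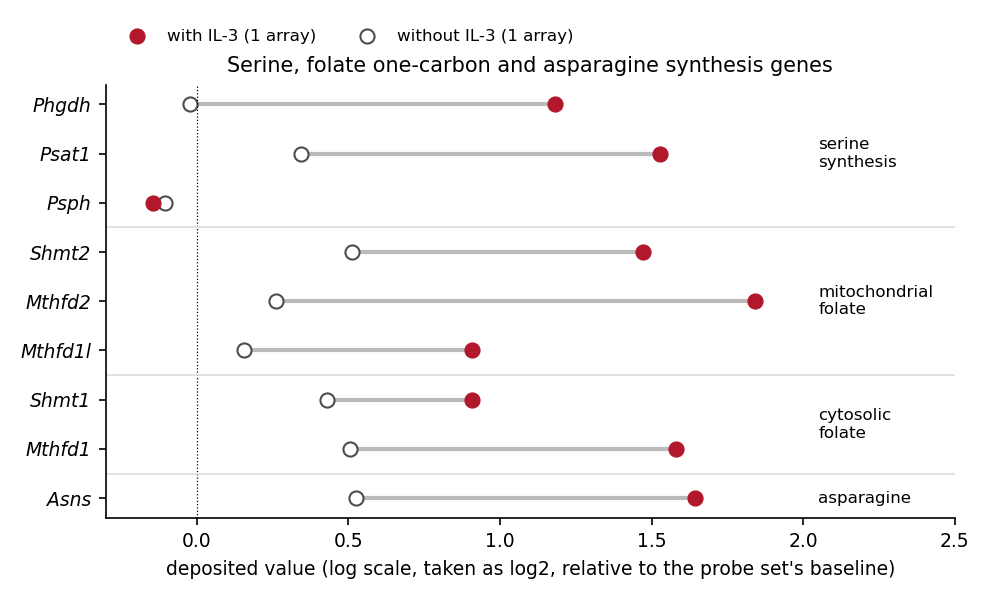
Deposited values of the 9 genes (x axis, log scale taken as log2, relative to each probe set's baseline), grouped by pathway step, with 1 point per array: filled with IL-3, open without IL-3, joined by a grey line whose length is the difference. The filled point lies to the right for 8 genes, by 0.48 (Shmt1) to 1.58 (Mthfd2), whereas the points of Psph nearly coincide at -0.15 with IL-3 and -0.11 without IL-3.

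In serine synthesis, the probe sets of the first 2 steps were higher with IL-3 and that of the last was not. Phgdh (Entrez 236539, GRCm38.p6 chr3:98313171-98339969), the dehydrogenase that commits 3-phosphoglycerate to the pathway, had 1.18 with IL-3 and -0.02 without IL-3. The difference of 1.20 is 2.31-fold and ranked 28 among the 19935 genes from the highest down. Psat1 (Entrez 107272, chr19:15905123-15925059), the transaminase of the next step, had 1.53 with IL-3 and 0.34 without IL-3, a difference of 1.18 or 2.27-fold at rank 32. The differences of Psat1 and Phgdh were 0.02 apart as deposited. They were 0.89 and 1.08 with the loess trend described below subtracted. Psph (Entrez 100678, chr5:129765558-129787443), the phosphatase that releases serine, had -0.15 with IL-3 and -0.11 without IL-3. Its difference of -0.04 is smaller than the probe set SD and ranked 13711. Both values of its only probe set lay below the median of their array, -0.03 with IL-3 and -0.05 without IL-3. Whether this probe set reports the transcript well is not known from these values. The differences of Phgdh and Psph lay 1.25 apart on the log2 scale. A further probe set, annotated to Phgdh together with a second gene and so not used for naming, had 1.30 with IL-3 and -0.14 without IL-3, a difference of 1.44.

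The 3 mitochondrial folate enzymes were all higher with IL-3, with differences from 0.75 to 1.58. Mthfd2 (Entrez 17768, chr6:83305704-83326011), the dehydrogenase and cyclohydrolase that is abundant in embryonic and dividing cells, had 1.84 with IL-3 and 0.26 without IL-3. Its difference of 1.58, or 2.99-fold, was the largest of the 9 and ranked 3 of all genes. Shmt2 (Entrez 108037, chr10:127517123-127522444), the mitochondrial serine hydroxymethyltransferase that feeds it, had 1.47 with IL-3 and 0.51 without IL-3, which is 1.95-fold higher and just under the 2-fold mark (difference 0.96, rank 110). Mthfd1l (Entrez 270685, chr10:3972892-4167081), which releases formate from mitochondrial formyl-tetrahydrofolate, had 0.91 with IL-3 and 0.16 without IL-3, or 1.68-fold (difference 0.75, rank 326). The differences of Mthfd2 and Mthfd1l, adjoining steps, lay 0.83 apart. Mthfd2l, a paralogue of Mthfd2 that is no part of the 9, differed by only 0.10, with -0.04 with IL-3 and -0.14 without IL-3.

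In the cytosol, Mthfd1 (Entrez 108156, chr12:76254406-76319820), the trifunctional enzyme that takes up formate and interconverts the folate carbon units, had 1.58 with IL-3 and 0.51 without IL-3. This is a difference of 1.07 or 2.11-fold, at rank 59. Shmt1 (Entrez 20425, chr11:60788897-60811265), the cytosolic serine hydroxymethyltransferase, had 0.91 with IL-3 and 0.43 without IL-3, which is 1.39-fold higher (difference 0.48, rank 1101) and below the 1.5-fold mark. The mitochondrial enzyme of each comparison was not always the one with the larger difference. The difference of Shmt2 exceeded that of Shmt1 by 0.48 and that of Mthfd2 exceeded that of Mthfd1 by 0.51, whereas the contrast of Mthfd1l with Mthfd1 was -0.32. The probe set SD of such a contrast was 0.22. With the loess trend described below subtracted, the differences of Mthfd1l (0.65) and Mthfd1 (0.72) lay closer together, and no contrast changed sign. With 1 array a group, whether paralogues differ in response could not be tested.

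Asns (Entrez 27053, chr6:7675165-7693209), asparagine synthetase, had 1.64 with IL-3 and 0.53 without IL-3. Its difference of 1.12, or 2.17-fold, ranked 45. Without IL-3 its value was the highest of the 9 relative to its own baseline, and with IL-3 it was the second after Mthfd2. These positions are set against separate baselines and say nothing about which gene has more RNA.

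The scatter of differences was widest among genes with the highest mean of both values. Of the 9 genes, 8, all but Psph, lay among the highest 25% of genes by that mean. In this group of 4984 genes the median difference was 0.11. The robust spread of the differences, the median absolute deviation scaled to a normal SD, was 0.42 there and 0.17 over all genes. Within it 1.71% of genes passed 2-fold upwards and 12.8% passed 1.5-fold upwards. Mthfd2 stood 3.49 such spreads above the group's median, Phgdh 2.60, Psat1 2.55, Asns 2.39, Mthfd1 2.29, Shmt2 2.02 and Mthfd1l 1.52. Shmt1, at 0.87, lay within the bulk of the group. Since the mean contains both values, a gene that is high in 1 array enters this group partly through its difference.

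**Figure D2:**
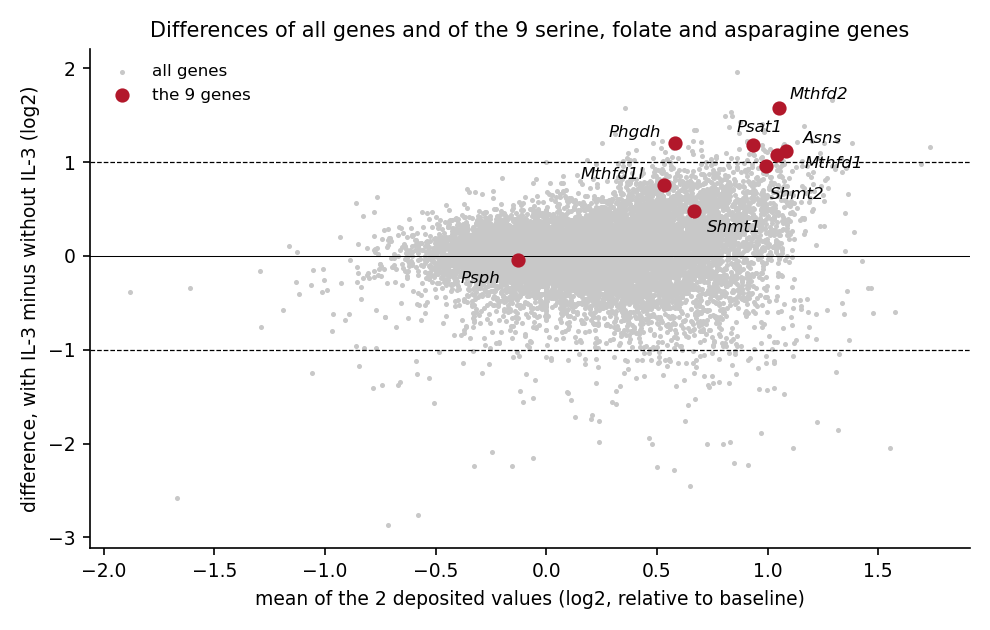
Value with IL-3 less that without (y axis, log2) against the mean of both deposited values (x axis, log2, relative to baseline), with 1 grey point for each of 19935 genes, the 9 genes in red and dashed lines at 2-fold in either direction. Mthfd2 lies at 1.58 near the upper edge, 7 more of the 9 lie between 0.48 and 1.20 in the right part of the cloud, and Psph lies at -0.04 in its middle.

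Scaling of the arrays altered the sizes but not the directions of the 9 differences. With each array centred on its median the 9 differences moved by little, and 5 genes remained at least 2-fold higher. After quantile normalization 5 genes were at least 2-fold and 7 at least 1.5-fold higher. When a loess trend of the difference on the mean value was subtracted, Mthfd2 (1.22) and Phgdh (1.08) were the 2 genes still past 2-fold, while Psat1 was at 0.89, Asns at 0.74, Mthfd1 at 0.72, Mthfd1l at 0.65, Shmt2 at 0.63, Shmt1 at 0.31 and Psph at -0.08. The count past 1.5-fold was 7 under each of these scalings. Of all genes, 3.21% passed 1.5-fold upwards with median centring, 2.41% after quantile normalization and 1.79% after loess. In the same order, 0.416%, 0.311% and 0.145% of all genes passed 2-fold upwards. Ranks among all genes shifted with loess too, to 7 for Mthfd2, 17 for Phgdh, 52 for Psat1, 132 for Asns, 152 for Mthfd1, 237 for Mthfd1l, 265 for Shmt2 and 1592 for Shmt1. The balance of all genes past 2-fold also depended on the scaling: the higher genes were 40.2% of those past 2-fold as deposited (88 higher, 131 lower), 27.8% after quantile normalization (62 higher, 161 lower) and 12.4% after loess (29 higher, 205 lower).

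**Figure D3:**
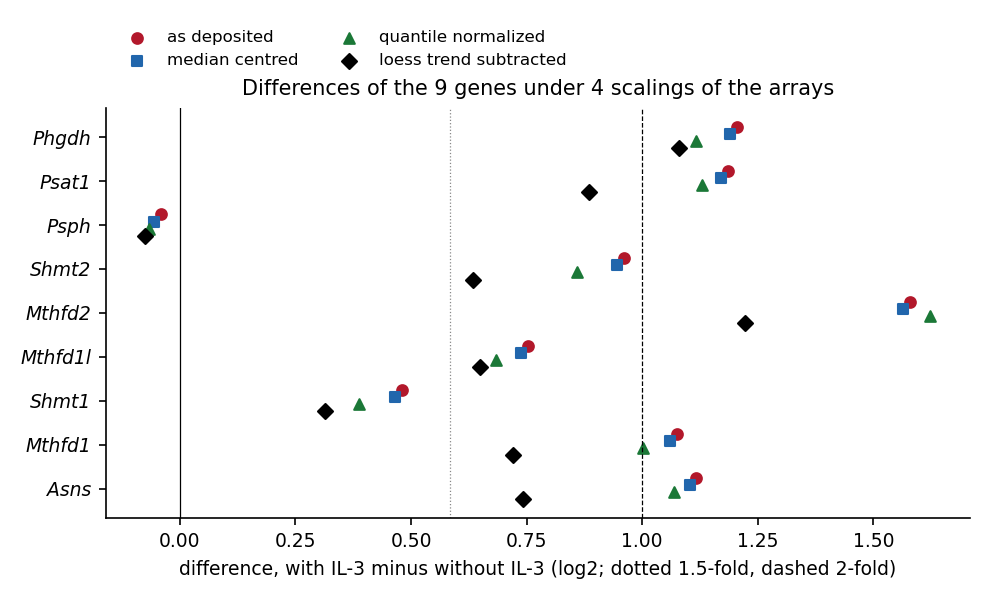
Difference with IL-3 minus without IL-3 (x axis, log2) of each of the 9 genes under 4 scalings of the arrays, marked by shape, with a dotted line at 1.5-fold and a dashed line at 2-fold. Mthfd2 and Phgdh stay right of 2-fold under each scaling, Psat1, Mthfd1 and Asns drop below it only after the loess trend is subtracted, and Psph stays just left of 0.

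The promoters of 5 of these genes are shown because ATF4 and MYC are the textbook regulators of the pathway. Psph is among the 5 because it sits in the same pathway as Phgdh and Psat1, although its only probe set did not share the difference. Each window holds 250 bases before and 50 bases after an annotated RefSeq start (GRCm38.p6), read 5′ to 3′ on the gene's strand, which is minus for all 5. The annotated bounds of Mthfd2 and Psph extend farther upstream than these starts, and a second start of Psat1 is not shown. Capitals mark the ATF4 and C/EBP composite core (TGATGNAA, searched on both strands) in Asns and the CCAAT box (CCAAT, both strands, so also ATTGG) in the other windows; neither motif overlaps the other here.
Asns (chr6:7693160-7693459): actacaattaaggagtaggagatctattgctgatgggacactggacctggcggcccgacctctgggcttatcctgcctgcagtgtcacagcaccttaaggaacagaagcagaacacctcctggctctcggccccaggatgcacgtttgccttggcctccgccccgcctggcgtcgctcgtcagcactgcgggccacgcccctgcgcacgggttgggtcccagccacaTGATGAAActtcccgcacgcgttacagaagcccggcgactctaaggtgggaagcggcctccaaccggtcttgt
Mthfd2 (chr6:83317555-83317854): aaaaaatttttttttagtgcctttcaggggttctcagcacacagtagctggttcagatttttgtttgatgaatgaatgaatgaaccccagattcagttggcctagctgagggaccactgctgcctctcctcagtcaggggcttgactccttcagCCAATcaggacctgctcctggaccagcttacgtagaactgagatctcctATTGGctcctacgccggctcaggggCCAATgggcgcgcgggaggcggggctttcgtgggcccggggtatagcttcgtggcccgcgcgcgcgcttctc
Phgdh (chr3:98339920-98340219): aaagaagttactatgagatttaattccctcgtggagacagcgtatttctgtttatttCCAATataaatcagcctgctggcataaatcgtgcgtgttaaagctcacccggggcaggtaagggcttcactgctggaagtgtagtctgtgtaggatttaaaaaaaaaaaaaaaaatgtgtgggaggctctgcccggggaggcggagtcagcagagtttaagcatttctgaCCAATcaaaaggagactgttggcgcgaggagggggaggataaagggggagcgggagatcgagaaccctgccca
Psat1 (chr19:15925010-15925309): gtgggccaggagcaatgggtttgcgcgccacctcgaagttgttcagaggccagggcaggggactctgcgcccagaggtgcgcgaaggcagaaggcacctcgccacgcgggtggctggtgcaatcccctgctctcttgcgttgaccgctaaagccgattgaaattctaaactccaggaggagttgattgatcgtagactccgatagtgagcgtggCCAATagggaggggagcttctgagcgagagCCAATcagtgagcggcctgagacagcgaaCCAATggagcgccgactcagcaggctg
Psph (chr5:129787204-129787503): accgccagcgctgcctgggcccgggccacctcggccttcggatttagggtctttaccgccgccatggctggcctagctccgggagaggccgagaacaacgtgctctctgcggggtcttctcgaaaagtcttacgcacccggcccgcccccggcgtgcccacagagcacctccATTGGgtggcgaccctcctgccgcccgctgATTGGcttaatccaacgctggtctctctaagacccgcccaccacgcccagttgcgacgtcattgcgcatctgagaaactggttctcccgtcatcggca

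The composite core was found in 1 of the 10 windows of the 9 genes, that of Asns, as TGATGAAA with its first base at position -23 from the start, and in 3.97% of all 32851 windows of this length. The E-box that MYC binds (CACGTG, the same on both strands) was in 0 of the 10 windows and in 7.15% of all windows. The CCAAT box, which was added after the windows had been read, was in 6 of the 10 windows and in 37.4% of all windows. It was present 3 times each in the Mthfd2 and Psat1 windows shown, 2 times each in those of Phgdh and Psph and 1 time each in those of Shmt1 and Mthfd1. The windows of Shmt2, Mthfd1l and Asns and the other window of Psat1 did not hold it. Letters in a window are not binding, and sites outside these windows were not searched.

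Around the 9 genes, 15 lists of connected enzymes, carriers and regulators were examined, holding 144 genes, of which 130 had a probe set of their own. Of the 121 that are not among the 9, 85 (70.2%) were above 0, against 59.8% of all genes, and their median difference was 0.15. In the direction of higher values with IL-3, 17 (14.0%) passed 1.5-fold. This compares with 3.52% of all genes. The share was 12.8% in the highest 25% by mean value, a group to which the 121 are not confined. Among genes with both values at or above the median of their array, 15 of 76 passed, against 7.4% of all such genes. Upwards 2 of the 121 passed 2-fold, against 0.441% of all genes. In the other direction, 3 of the 121 passed 1.5-fold, against 2.71% of all genes. There 2 of the 121 passed 2-fold, against 131 of all 19935 genes. The 17 became 9 after quantile normalization and 5 after loess, while the share of all genes became 2.41% and 1.79%.

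The other mitochondrial folate genes differed little: the 4 had a median of 0.21, and 0 passed 1.5-fold, against 3.52% of all genes. The folate carrier gene Slc25a32 differed by 0.26, although it was at -0.03 after the loess trend was subtracted, and the formyl-tetrahydrofolate dehydrogenase gene Aldh1l2 by 0.23. Of the cytosolic genes, Tyms, which spends a folate carbon on thymidylate, was 1.53-fold higher (0.68 with IL-3 and 0.07 without IL-3). Mthfsd differed by 0.48. Slc19a1, the reduced folate carrier at the plasma membrane, differed by 0.59, just past 1.5-fold, and Fpgs, which adds the glutamate tail that keeps folates in the cell, differed by 0.40. In the glycine cleavage system, which also loads folate with a carbon, Gldc differed by 0.11 and Amt by -0.11. Gcsh differed by 0.31, and Dld, a subunit shared with other dehydrogenase complexes, by 0.54.

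Purine synthesis, the main consumer of formyl-folate, had a list median of 0.55 over 12 genes. Of these, 11 were above 0 and 5 passed 1.5-fold upwards: Adsl (1.83-fold), Gart (1.79-fold), Pfas (1.72-fold), Ppat (1.59-fold) and Impdh1 (1.53-fold). Gart, an enzyme that takes formyl-folate directly, had 1.49 with IL-3 and 0.64 without IL-3. Atic, the other such enzyme, had 0.89 with IL-3 and 0.36 without IL-3, a difference of 0.53. After quantile normalization 3 genes of this list passed 1.5-fold, against 2.41% of all genes. After loess 1 gene did, against 1.79% of all genes, with 8 of the 12 above 0 and a median of 0.27.

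The use of serine and glycine outside the folate cycle gave both signs, with 7 of 15 genes above 0 and a median of -0.07. Gars, the glycyl-tRNA synthetase gene, was 1.69-fold higher, whereas Alas1, which condenses glycine into the haem pathway, differed by -0.51 and Sptlc1, a subunit of the enzyme that starts sphingolipids from serine, by -0.41. Of the 10 carriers for serine and glycine, 9 were above 0 as deposited, 8 after quantile normalization and 7 after loess. Over all genes 59.8% were above 0 as deposited. Slc1a4, a neutral amino acid transporter gene, differed by 0.59, just past 1.5-fold, and Sfxn3, a sideroflexin, differed by -0.53. In the methionine cycle, Mtap, which recycles the methylthioadenosine left by polyamine synthesis, was 2.07-fold higher (1.38 with IL-3 and 0.34 without IL-3), while the other 7 genes lay between -0.20 and 0.30, with Ahcyl1 at 0.30. Cbs and Cth of transsulphuration, which turns serine and homocysteine into cysteine, differed by 0.19 and 0.16.

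Of the genes beside Asns in aspartate, asparagine and glutamine metabolism, 3 of 9 passed 1.5-fold towards higher values with IL-3. These were Got1 and Got2, the cytosolic and mitochondrial aspartate aminotransferases, with differences of 0.76 and 0.59, and Nars, the asparaginyl-tRNA synthetase gene, at 0.63. The count was 2 with median centring, 1 after quantile normalization and 0 after loess. Glul, glutamine synthetase, was 1.80-fold lower, with 0.58 with IL-3 and 1.43 without IL-3. Asns consumes the glutamine that Glul makes, and the differences of these genes had opposite signs. All 9 measured genes of proline, alanine and branched-chain amino acid metabolism were above 0 under each of the 4 scalings. As deposited their median was 0.42, and 59.8% of all genes were above 0. Gpt2, the mitochondrial alanine aminotransferase gene, was 1.74-fold higher and Oat, ornithine aminotransferase, differed by 0.52.

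**Figure D4:**
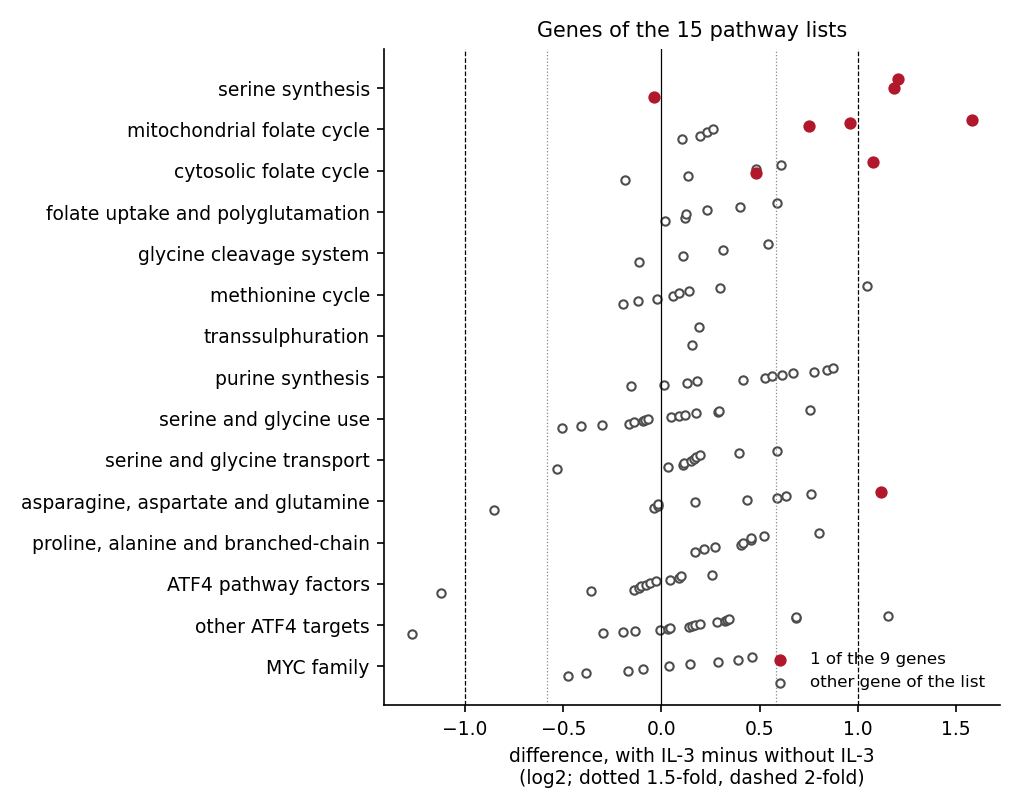
Difference with IL-3 minus without IL-3 (x axis, log2) of every measured gene in 15 pathway lists (rows), with the 9 genes in red and other listed genes as open circles, dotted lines at 1.5-fold and dashed lines at 2-fold in either direction. Right of the 2-fold line lie 5 red points and the open circles of Mtap (1.05) and Lonp1 (1.15), Psph lies at -0.04, and Slc7a11 (-1.27) and Ppp1r15a (-1.12), in the ATF4 rows, lie left of the 2-fold line on the lower side.

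Among the ATF4 pathway factors and the MYC family, Ppp1r15a was the only gene past 1.5-fold in either direction. Atf4 itself had 0.04 with IL-3 and -0.04 without IL-3, a difference of 0.09 that is smaller than the probe set SD. As background, ATF4 is controlled largely through translation of its mRNA. Of the 12 ATF4 pathway factors 4 were above 0, and Atf5 differed by -0.03, Ddit3 (CHOP) by -0.36 and Cebpg by 0.25. Ppp1r15a, which encodes GADD34, the stress-induced subunit that reverses eIF2α phosphorylation, was 2.18-fold lower (-0.19 with IL-3 and 0.93 without IL-3). Among 18 other known ATF4 targets 3 were at least 1.5-fold higher, namely Lonp1, a mitochondrial protease gene, at 2.22-fold, and Nupr1 and the arginine transporter gene Slc7a1, both at 1.61-fold. Slc7a11, the cystine and glutamate exchanger gene, was 2.41-fold lower with -0.11 with IL-3 and 1.16 without IL-3. Trib3 differed by 0.20, Chac1 by -0.14 and Sesn2 by 0.34. Of the 18 targets 13 were above 0 and 5 below it, with a median of 0.16. Over all genes 59.8% were above 0 and the median was 0.04. Whether ATF4 had a part in these differences was not tested. In the MYC family Myc differed by 0.39, with 1.08 with IL-3 and 0.69 without IL-3. This difference was 0.24 after quantile normalization and 0.11 after loess. Mycn differed by 0.46, and the antagonist genes had both signs, with Mxd4 at -0.48 and Mxd3 at 0.29. The median of that list, which holds MYC genes and antagonists together, was 0.04 as deposited, -0.08 after quantile normalization and -0.13 after loess.

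Markers of other cell types were read beside these values. Of 11 mast cell and basophil markers 3 (Fcer1a, Cpa3 and Cma1) passed 2-fold towards lower values with IL-3, as did 131 of all 19935 genes. The list ran from -0.58 to 0.15 with IL-3 and from -0.39 to 1.88 without IL-3, with a median difference of -0.09. Of 9 granulocyte markers 4 (Ngp, Prg2, Epx and Itgam) were at least 2-fold lower. Values ran from -2.15 to 0.12 with IL-3 and from -0.63 to 0.84 without IL-3, with a median difference of -0.07. None of the 13 B-lineage, 7 macrophage, 5 T cell, 2 erythroid and 5 fibroblast markers measured differed by 2-fold. The largest differences among them were those of Cd3g (-0.80), Adgre1 (-0.79) and Ptprc (-0.73). The B-lineage markers ran from -0.23 to 0.24 with IL-3 and from -0.31 to 0.60 without IL-3. Baseline-relative values cannot show whether a marker is absent. The part of these markers in the differences of the 9 genes was not tested.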

How the data were processed

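Biotin-labelled sense-strand cDNA was hybridised to mouse Gene 1.0 ST arrays, per the labels' protocols. The authors deposited 28815 values per array, 1 for each probe set, which are logs read here as log2. For the deposited values, log base, background correction, normalization and baseline were not stated anywhere in the labels. In 1760 probe sets (6.11%) the 2 values summed to within 1e-05 of 0, and the origin of this was not tested.

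The platform annotation supplied gene names: 21780 probe sets had 1 symbol, 1605 several and 5430 none. Of the first, 21689 matched a RefSeq gene (GRCm38.p6). A gene with several probe sets was represented by the one whose 2 values had the highest mean, and no filter was applied. Differences were computed in Python 3.11.15, and the loess trend with statsmodels 0.14.6 (fraction 0.3). The counting was tested on simulated data.

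The 9 genes, the lists and the motifs were chosen with earlier results of these data known. Of each list, the text names the genes past 1.5-fold, the 2 with the largest absolute difference and a few genes fixed by name (Atf4, Atf5, Ddit3, Myc, Tyms, Gart and Atic). Gldc, Amt, Sptlc1, Mthfd2l, Cebpg, Trib3, Chac1, Sesn2 and Mxd3 were added after their values were seen. Markers of cell types were named by their values. With 2 arrays no search for genes of like pattern was possible. Alternatives changed the scaling, the probe set rule, the log base, the filter, the averaging and the threshold.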

Additional observations from a re-analysis of the deposited data

Results flagged for a closer look

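A probe set that the annotation gives to Phgdh and a second gene together, and that enters no value of the 9 genes, showed a signal outside the main measurement. It had 1.30 with IL-3 and -0.14 without IL-3, a difference of 1.44 on the log2 scale, against 1.20 for the probe set of Phgdh alone. How much of it comes from either gene was not tested.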

How the results depend on the processing

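No difference of the 9 genes changed sign under the alternatives run, and Psph stayed below 0 wherever it was kept. Only the median, quantile and loess scalings could have changed a sign. Of 70 values of single genes under 8 alternatives, 56 moved by less than the probe set SD and 14 moved by more, all 14 under the loess trend or the natural log. The probe set rules and the filters could not move a value of these genes. Each gene has 1 probe set of its own, and a filter only drops genes. The median difference was 0.72 after loess, 1.55 if the values are natural logs and 0.92 as a mean. The count at least 2-fold higher was 2 after loess and 5 to 7 otherwise. The share of all genes at least 2-fold higher was 0.441% as deposited, 0.145% after loess and 2.1% with natural logs. The number of other listed genes at least 1.5-fold higher was 17 as deposited, 9 after quantile normalization, 5 after loess and 28 with natural logs. In the same order, the share of all genes at least 1.5-fold higher was 3.52%, 2.41%, 1.79% and 7.4%. The cause of these shifts was not tested. Both filters dropped Psph. No paired analysis was possible because each group has 1 array. Leaving out an array would leave no difference. Signal over background is not known from these values, so faint probe sets could not be set apart.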
